A study of Rattus norvegicus with 36 samples.

Results

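The lung was studied 2 weeks after a single 15 Gy dose to the whole thorax, given as X-rays, by sequencing of small RNA. The group was taken from the sample labels and held 3 libraries of lung at 15 Gy 2 weeks, which were set against 3 libraries of lung at 0 Gy 1 week, so that 6 of the 36 libraries of the series were compared. All rats were female WAG/RijCmcr rats, 9 to 10 weeks old at irradiation, and the 15 Gy beam took in the lungs, the heart and part of the liver. The 0 Gy rats were not irradiated. RNA came from the right superior lobe of the lung, and each library pooled the RNA of 3 rats, with 9 rats per group according to the methods of the study and 3 according to the sample labels. No unirradiated group of 2 weeks was used, so the dose and the week of sampling cannot be told apart in this comparison, and lung at 15 Gy 1 week (3 libraries of the same strain, sex, age at irradiation and dose) served as a second comparison. The RNA came from tissue of mixed cell types, so fewer cells of a type and less RNA per cell cannot be told apart.

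A microRNA (miRNA) is a short RNA cut from a hairpin, whose seed near its 5′ end pairs with target messenger RNAs and lowers their output. Both arms of a hairpin, named 5p and 3p, can be loaded, and usually one arm is far more abundant. In lung, miR-126 marks endothelium, the miR-200 family marks epithelium and miR-143 and miR-145 mark smooth muscle, while miR-486, miR-451 and miR-144 come from red cells left in the tissue. Thoracic irradiation of the rat is a model of pneumonitis and later fibrosis, and p53-induced miR-34a, inflammatory miR-21 and miR-146 and the let-7 family are among the miRNAs often followed after radiation.

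The sequences below are the ones on which the results turn, from RefSeq (rat build GRCr8), written 5′ to 3′ with the seed, bases 2 to 8, in capitals. The first set holds miRNAs with the smallest unadjusted p among those higher at 15 Gy 2 weeks, the second the 4 let-7 members with the most negative log2 fold changes, which share 1 seed, and the third miR-338-3p, which passed the test between 2 weeks and 1 week after 15 Gy, with miR-3065-5p, miR-30c-1-3p and miR-142-5p, which did not.
miR-1249: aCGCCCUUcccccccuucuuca
miR-6328: aGGCCUGCucugagcccccgc
miR-423-5p: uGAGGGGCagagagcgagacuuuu
miR-484: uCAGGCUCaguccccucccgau
miR-702-3p: uGCCCACCcuuuaccccacucca
miR-582-3p: aACCUGUUgaacaacugaaccc
let-7b-3p: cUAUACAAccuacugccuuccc
miR-21-3p: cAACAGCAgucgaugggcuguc
let-7a-5p: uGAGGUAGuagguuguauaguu
let-7b-5p: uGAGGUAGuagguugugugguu
let-7c-5p: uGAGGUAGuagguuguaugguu
let-7d-5p: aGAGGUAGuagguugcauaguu
miR-338-3p: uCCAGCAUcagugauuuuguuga
miR-3065-5p: uCAACAAAaucacugaugcu
miR-30c-1-3p: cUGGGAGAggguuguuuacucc
miR-142-5p: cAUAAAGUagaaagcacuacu

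In GRCr8, miR-1249 lies at chr7:117955547-117955568 within the span of Kiaa0930, miR-6328 at chr20:2890159-2890179 within Ppp1r18, miR-423-5p at chr10:62412317-62412340 within Nsrp1, miR-702-3p at chr12:25318499-25318521 within Plod3 and miR-582-3p at chr2:42662001-42662022 within Pde4d. No other gene of the RefSeq table spanned miR-484 (chr10:1394915-1394936), let-7b-3p (chr7:118684098-118684119) or miR-21-3p (chr10:71902615-71902636). Whether a miRNA lies in an exon or an intron was not analysed here. The seeds of miR-1249, miR-6328, miR-423-5p, miR-484, miR-702-3p, miR-582-3p and miR-21-3p were each shared with no other known miRNA tested that had a RefSeq sequence. The seed of let-7b-3p was shared by 4 known miRNAs tested, of which 3 had a negative log2 fold change. A RefSeq sequence was found for 218 of the 242 known miRNAs tested.

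The table held 947 rows, of which 458 were known rat miRNAs, the set described here. The other rows were 116 homologs of miRNAs of other species and 373 predicted new loci. In the 6 libraries compared, 399 known miRNAs had at least 1 read, and 242 passed the filter on low counts and were tested among 499 rows. The total count was 1680675, 729051 and 239592 in the libraries of 15 Gy 2 weeks, against 1523909, 964989 and 11621 in those of 0 Gy 1 week. In 0 Gy 1 week replicate 3, the library of 11621 counts, 1 read stood for 53.8 CPM (counts scaled to the effective library size, which is the total times its TMM factor) and the limit that a count of 0 allows, 3 reads, was 161 CPM. Of the 242 known miRNAs tested, 111 had 0 reads there, against 0 to 2 in each of the other 5 libraries. A CPM of 0 in that library is therefore no sign of absence, such limits cover counting error only, and the counts of calls and the main values are given with and without it. Lung miRNAs were present in all 6 libraries, with miR-126a-5p between 5269.9 and 16165 CPM. Liver-specific miR-122-5p had 0 reads in all 6 libraries, cardiac miR-208a-5p had 0, and miR-499-5p and miR-1-3p of striated muscle had at most 7 reads in any of them. Muscle miR-133a-3p was at 55.5, 41.4 and 80.1 CPM at 15 Gy 2 weeks, against 42.5, 46.2 and 0 CPM at 0 Gy 1 week.

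No miRNA passed the adjusted threshold of 0.05 between 15 Gy 2 weeks and 0 Gy 1 week with the quasi-likelihood test of edgeR (0% of 499 rows). At an unadjusted p under 0.05, 24 rows lay higher (4.81%) and 2 lower (0.401%). Among the known miRNAs these were 10 higher (4.13%) and 0 lower. Of the known miRNAs, 30 had all libraries of 15 Gy 2 weeks above all of 0 Gy 1 week (12.4%, against 14.8% of all rows) and 2 had all of them below (0.826%, against 1% of all rows). The share of known miRNAs was thus near that of all rows, and the 10 miRNAs are described below by their values.

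miR-1249 had 21.2, 28.8 and 84.8 CPM (34, 23 and 18 reads) at 15 Gy 2 weeks, against 13.6, 8.56 and 0 CPM (25, 10 and 0 reads) at 0 Gy 1 week. miR-6328 had 15.6, 22.6 and 80.1 CPM at 15 Gy 2 weeks, against 8.17, 6.85 and 0 CPM at 0 Gy 1 week. For both, each library of 15 Gy 2 weeks lay above the deep libraries of 0 Gy 1 week, and the highest value was that of 15 Gy 2 week replicate 3, the shallowest library of its group. The log2 fold change was 1.99 (SE 0.65, adjusted p = 0.703) for miR-1249 and 2.32 (SE 0.77, adjusted p = 0.703) for miR-6328. Without 0 Gy 1 week replicate 3 these were 1.68 (SE 0.61, adjusted p = 0.977) and 2.02 (SE 0.75, adjusted p = 0.992).

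miR-423-5p, an arm of an abundant hairpin, had 469, 582 and 707 CPM at 15 Gy 2 weeks, against 297, 362 and 269 CPM at 0 Gy 1 week. It was the sole miRNA of the 10 with any reads in 0 Gy 1 week replicate 3, where 269 CPM rested on 5 reads. The groups did not overlap, and the log2 fold change was 0.91 (SE 0.31, adjusted p = 0.703), or 0.63 (SE 0.32) without that library. The other arm, miR-423-3p, was at 579, 1193 and 1347 CPM at 15 Gy 2 weeks, against 651, 557 and 1721 CPM at 0 Gy 1 week, so the groups overlapped (log2 fold change 0.12, SE 0.42).

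**Figure D1:**
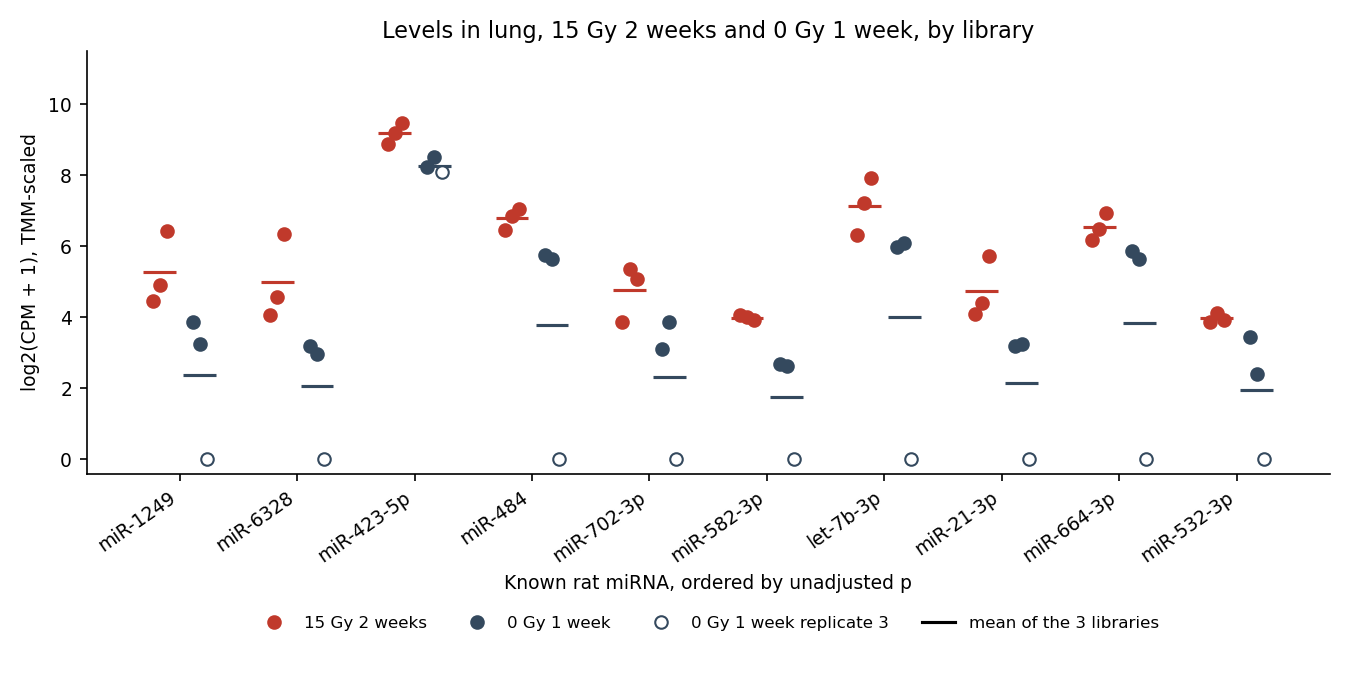
Levels of the 10 known miRNAs with an unadjusted p under 0.05, as log2(CPM + 1), for each library of lung at 15 Gy 2 weeks (red) and 0 Gy 1 week (dark), with the mean of 3 libraries as a line. Open points are 0 Gy 1 week replicate 3, which stand at 0 for 9 of the 10 miRNAs, where 1 read would give 53.8 CPM.

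Of the 10 miRNAs with an unadjusted p under 0.05, 2 (miR-484 and miR-702-3p) were on the list of noncanonical miRNAs, whose hairpins bypass the Microprocessor. In mouse, miR-702 and miR-877 are mirtrons, spliced introns that form the hairpin, and miR-484 and miR-320 are independent of Dgcr8. miR-484 had 86.7, 114 and 132 CPM at 15 Gy 2 weeks, against 52.8, 48.8 and 0 CPM at 0 Gy 1 week (log2 fold change 1.33, SE 0.50, and 0.92, SE 0.45, without 0 Gy 1 week replicate 3). miR-702-3p had 13.7, 40.1 and 33.0 CPM at 15 Gy 2 weeks, against 7.62, 13.7 and 0 CPM at 0 Gy 1 week (log2 fold change 1.48, SE 0.57, and 1.23, SE 0.55, without that library). The levels of miR-702-3p in the groups nearly met at 13.7 CPM, whereas those of miR-484 were well apart. miR-877 was at 6.86, 7.52 and 9.42 CPM at 15 Gy 2 weeks, against 2.72, 2.57 and 0 CPM at 0 Gy 1 week, on 2 to 11 reads and 0 to 5 reads per library (log2 fold change 1.51, SE 0.74, and 1.34, SE 0.72, without that library). miR-320-3p went the other way, with 109, 158 and 104 CPM at 15 Gy 2 weeks, against 137, 104 and 323 CPM at 0 Gy 1 week, on overlapping values. Of the 4 noncanonical miRNAs tested, 3 had a positive log2 fold change and 2 an unadjusted p under 0.05 in that direction (4.81% of all rows), and their median was 1.40, beside a median of 0.10 over all rows tested. It was 1.07 without 0 Gy 1 week replicate 3 and between 1.04 and 1.40 over 4 ways of scaling the libraries. At 15 Gy 1 week against the same controls the median was 1.06. None of the 4 passed the adjusted threshold at 2 weeks. The list was chosen with earlier results of these data known, so its median is a description, and it is too short to call anything particular to it.

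Minor arms made up part of the rest. let-7b-3p, the minor arm of let-7b, had 77.9, 148 and 240.2 CPM at 15 Gy 2 weeks, against 61.5, 66.7 and 0 CPM at 0 Gy 1 week (log2 fold change 1.52, SE 0.61, and 1.03, SE 0.54, without 0 Gy 1 week replicate 3). miR-21-3p, the minor arm of the inflammation- and injury-linked miR-21, had 16.2, 20.1 and 51.8 CPM at 15 Gy 2 weeks, against 8.17, 8.56 and 0 CPM at 0 Gy 1 week (log2 fold change 1.76, SE 0.77, and 1.49, SE 0.79, without that library). The main arm miR-21-5p was at 983, 938 and 749 CPM at 15 Gy 2 weeks, against 776, 677 and 753 CPM at 0 Gy 1 week, on overlapping values. Its log2 fold change was 0.28 (SE 0.44, 95% interval -0.58 to 1.14). miR-21-3p was the arm with the larger fold change and by far the lower level, and no test compared the arms.

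miR-582-3p varied little at 15 Gy 2 weeks, with 15.6, 15.0 and 14.1 CPM, against 5.44, 5.13 and 0 CPM at 0 Gy 1 week (log2 fold change 1.52, SE 0.59, and 1.34, SE 0.59, without 0 Gy 1 week replicate 3). Its last value at 15 Gy 2 weeks rested on 3 reads. miR-664-3p, whose sequence also lies in the small nucleolar RNA gene Snora36c in RefSeq, had 71.1, 87.8 and 122 CPM at 15 Gy 2 weeks, against 57.2, 48.8 and 0 CPM at 0 Gy 1 week. miR-532-3p, from a cluster on the X chromosome, had 13.7, 16.3 and 14.1 CPM at 15 Gy 2 weeks, against 9.80, 4.28 and 0 CPM at 0 Gy 1 week. The log2 fold changes of miR-664-3p (1.03, SE 0.47) and miR-532-3p (1.08, SE 0.50) were 0.61 (SE 0.36) and 0.87 (SE 0.48) without 0 Gy 1 week replicate 3. The next in order of p, miR-664-2-5p, was at 14.3, 10.0 and 4.71 CPM at 15 Gy 2 weeks, against 3.27, 5.13 and 0 CPM at 0 Gy 1 week (log2 fold change 1.37, SE 0.66, and 1.22, SE 0.68, without that library).

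With TMM and all 3 controls, 103 of the 242 known miRNAs had a negative log2 fold change and 0 of them an unadjusted p under 0.05. Without 0 Gy 1 week replicate 3, 161 of 267 were negative and 2 had an unadjusted p under 0.05, let-7b-5p and miR-30c-1-3p. miR-31a-5p had 31.8, 32.6 and 23.6 CPM at 15 Gy 2 weeks, against 41.9, 37.7 and 215 CPM at 0 Gy 1 week, the last from 4 reads. The groups did not overlap, and the log2 fold change was -1.19 (SE 0.59), or -0.57 (SE 0.41) without 0 Gy 1 week replicate 3. miR-218a-5p likewise had 34.9, 25.1 and 23.6 CPM at 15 Gy 2 weeks, against 41.9, 32.5 and 161 CPM at 0 Gy 1 week, the last from 3 reads, and its log2 fold change without that library was -0.55 (SE 0.52). miR-374-5p was at 19.3, 7.52 and 9.42 CPM at 15 Gy 2 weeks, against 24.5, 24.0 and 0 CPM at 0 Gy 1 week, so it lay below both deep control libraries, with a log2 fold change of -1.05 (SE 0.58) without the shallow one. miR-30c-1-3p, the minor arm of a miR-30 hairpin, is described with the comparison of the weeks.

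The control library of 11621 counts set part of this picture. For each of the 111 known miRNAs at 0 reads in it, the log2 fold change was higher with the library than without it, with a median of 0.18 against -0.10. Over all 242, the sign differed between both fits for 56. Without it, 557 rows were tested, 0 passed the adjusted threshold, and 20 lay higher (3.59%) and 4 lower (0.718%) at an unadjusted p under 0.05. Among 267 known miRNAs, 7 then lay higher (2.62%) and 2 lower (0.749%). Of the 10 above, 4 were among these 7, namely miR-1249, miR-6328, miR-582-3p and miR-702-3p, and the others were let-7d-3p, miR-184 and miR-99a-3p. miR-184 had 4, 2 and 0 reads at 15 Gy 2 weeks and 0 reads in each library of 0 Gy 1 week, which is at or near the limit of detection, so no fold is given. miR-99a-3p had 23, 10 and 9 reads at 15 Gy 2 weeks, against 15, 6 and 1 reads at 0 Gy 1 week. These last 2 were named after their values were seen. Without that library, 43 known miRNAs lay above both control libraries (17.8%, against 20.2% of all rows) and 33 below both (13.6%, against 11.2% of all rows).

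**Figure D2:**
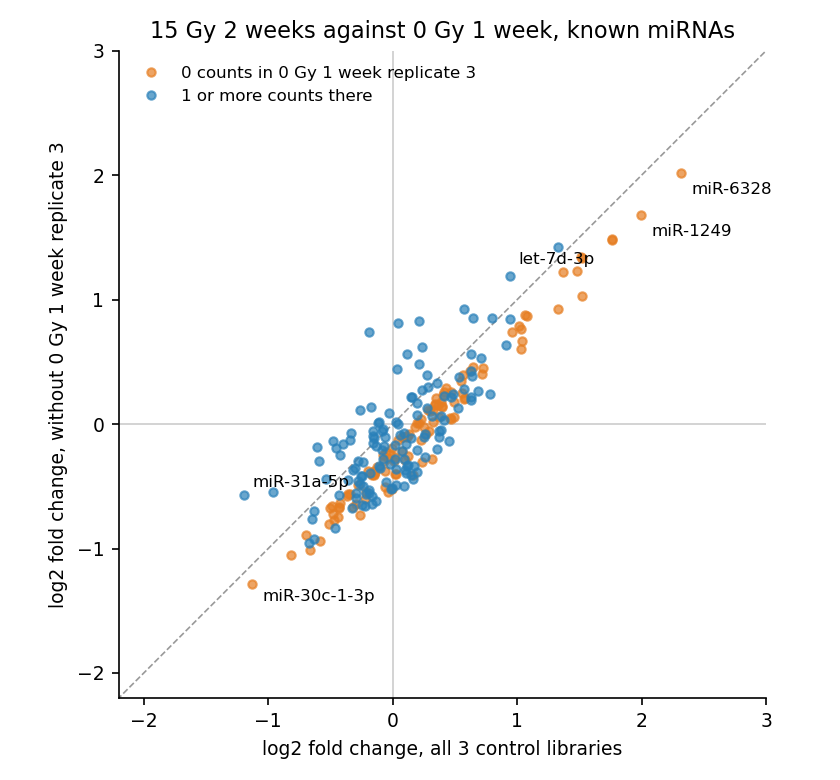
Log2 fold changes of the known miRNAs between lung at 15 Gy 2 weeks and 0 Gy 1 week, with all 3 control libraries (horizontal) and without 0 Gy 1 week replicate 3 (vertical), where the dashed line marks equal values. The 111 miRNAs at 0 reads in that library (orange) all lie below the line, and miR-31a-5p, at 4 reads there, lies above it.

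Scaling moved the balance of signs as well. With TMM 57.4% of the known miRNAs tested had a positive log2 fold change, against 40.1% with RLE size factors, 27.7% with library totals and 26.0% with scaling to miR-191a-5p. The median of all rows tested was 0.10, -0.06, -0.25 and -0.27 in that order. Known miRNAs with an unadjusted p under 0.05 were 10 higher and 0 lower with TMM, 7 and 3 with RLE, 3 and 5 with totals, and 1 and 1 with miR-191a-5p. The sign of a small difference at 15 Gy 2 weeks thus depends on the scaling. The 10 miRNAs kept a positive log2 fold change in each of 18 other settings that kept 0 Gy 1 week as the control. Between 1 (miR-532-3p and miR-664-3p) and 15 (miR-6328) of these gave an unadjusted p under 0.05. Runs with 0 Gy 4 weeks in the control were not among the 18. Of the 10, miR-582-3p alone averaged higher at 0 Gy 4 weeks (19.5 CPM) than at 15 Gy 2 weeks (14.9 CPM). The means of miR-532-3p (13.8 and 14.7 CPM) and miR-423-5p (556 and 586 CPM) were close in these groups.

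The most abundant known miRNA was miR-143-3p of smooth muscle, with 94503, 69837 and 91994 CPM at 15 Gy 2 weeks, against 62553, 62695 and 92976 CPM at 0 Gy 1 week, on overlapping values (log2 fold change 0.23, SE 0.52). miR-10a-5p, from a Hox gene cluster, had 56309.5, 49847 and 65009.9 CPM at 15 Gy 2 weeks, against 36907, 37581 and 36405 CPM at 0 Gy 1 week. Its groups were apart with a narrow spread at 0 Gy 1 week, and its log2 fold change was 0.63 (SE 0.34, 95% interval -0.03 to 1.29), which became 0.16 with library totals and 0.00 with miR-191a-5p. Unirradiated lung at 0 Gy 4 weeks had 49281, 49478 and 113256 CPM of miR-10a-5p, which overlapped 15 Gy 2 weeks. miR-146b-5p, which acts in the feedback on NF-kB signalling, had 14423, 13099 and 15044 CPM at 15 Gy 2 weeks, against 11151, 8113 and 10109.6 CPM at 0 Gy 1 week (log2 fold change 0.54, SE 0.33, and -0.09 with miR-191a-5p). The groups of miR-99b-5p and miR-125a-5p, which come from 1 cluster, did not overlap either, with log2 fold changes of 0.80 (SE 0.55) and 0.71 (SE 0.52). Those of miR-99b-5p nearly met, at 29748 CPM in 15 Gy 2 week replicate 2 and 29522 CPM in 0 Gy 1 week replicate 3. miR-22-3p averaged 11559 ± 251 CPM at 15 Gy 2 weeks and 8029 ± 2353 CPM at 0 Gy 1 week (SD, 3 libraries each). miR-26a-5p, miR-30a-5p and miR-126a-5p overlapped between the groups, with log2 fold changes of 0.17, 0.15 and 0.26. None of these passed the adjusted threshold.

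The let-7 family, which holds back growth genes in many tissues, had 5 of 8 members tested with a negative log2 fold change and 0 with an unadjusted p under 0.05. let-7d-5p had the most negative value, with 426, 313 and 203 CPM at 15 Gy 2 weeks, against 615, 495 and 376 CPM at 0 Gy 1 week (log2 fold change -0.67, SE 0.56, and -0.96, SE 0.66, without 0 Gy 1 week replicate 3). let-7a-5p had 2487, 1658 and 928 CPM at 15 Gy 2 weeks, against 3024, 1991 and 2850.1 CPM at 0 Gy 1 week (log2 fold change -0.63, SE 0.43, and -0.70, SE 0.52, without 0 Gy 1 week replicate 3). let-7c-5p had 2425, 1631 and 1182 CPM at 15 Gy 2 weeks, against 3110.0, 2274 and 2850.1 CPM at 0 Gy 1 week (log2 fold change -0.65, SE 0.37, and -0.76, SE 0.45, without that library). For these 3 the groups overlapped, and the lowest value was again that of the shallowest library, 15 Gy 2 week replicate 3. let-7b-5p, at 866, 616 and 438 CPM at 15 Gy 2 weeks, against 1115, 962 and 538 CPM at 0 Gy 1 week, had a log2 fold change of -0.46 (SE 0.36), or -0.84 (SE 0.36, adjusted p = 1) without 0 Gy 1 week replicate 3. The median of the 8 members was -0.35 with TMM, -0.54 with RLE, -0.77 with library totals and -0.80 with miR-191a-5p, beside medians of all rows of 0.10, -0.06, -0.25 and -0.27. Without 0 Gy 1 week replicate 3 it was -0.56, beside -0.10 for all rows. Negative values made up 5 of 8 members, beside 103 of 242 known miRNAs with TMM and 161 of 267 without that library.

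Reads of let-7 carry a further limit. miR-3596a, at 17568, 11291 and 7937 CPM at 15 Gy 2 weeks, against 16905, 12397 and 12422 CPM at 0 Gy 1 week, is the reverse complement of let-7a-5p over 22 bases in RefSeq. miR-3596b, miR-3596c and miR-3596d stand in the same way opposite let-7d-5p, let-7e-5p and let-7f-5p. Whether the counting used strand is not given in the sources used here, so each of these pairs cannot be told apart. In the 3p arms of let-7 and miR-98 the values went both ways, with 4 of 7 positive and a median of 0.16. let-7d-3p, the highest of them by level, had 425, 882 and 1116 CPM at 15 Gy 2 weeks, against 315, 291 and 699 CPM at 0 Gy 1 week, on overlapping values.

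Of the miRNAs of inflammation, 5 of 5 tested had a positive log2 fold change with TMM, beside 57.4% of all known miRNAs. Their median was 0.35 (0.13 without 0 Gy 1 week replicate 3, -0.0028 with library totals and -0.09 when scaled to miR-191a-5p). Only miR-21-3p among them had an unadjusted p under 0.05. miR-146a-5p was at 1755, 1565 and 1432 CPM at 15 Gy 2 weeks, against 1918, 1323 and 430.2 CPM at 0 Gy 1 week, on overlapping values. The p53-induced miR-34a-5p had 92.9, 102 and 98.9 CPM at 15 Gy 2 weeks, against 74.6, 74.4 and 53.8 CPM at 0 Gy 1 week. Its 3 irradiated libraries lay above all controls, and its log2 fold change was 0.47 (SE 0.33, 95% interval -0.18 to 1.11), or 0.21 (SE 0.35) without 0 Gy 1 week replicate 3. Of the 7 p53-linked miRNAs tested, 2 were positive and 5 negative, with a median of -0.21, or -0.42 without that library. The fibrosis and mesenchyme list, with miR-29, miR-199a and miR-214, had 2 of 7 positive and a median of -0.08, or -0.21 without it. miR-17-92, a cluster that drives proliferation, had 1 of 5 positive and a median of -0.24, or -0.31 without it.

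Markers of cell types showed the blood and the tissue of the lobe. Red cell miRNAs summed to 12883, 20474 and 47719 CPM at 15 Gy 2 weeks, against 8273, 10805 and 36728 CPM at 0 Gy 1 week. The largest part of the sum in each library was miR-486-5p. Next came miR-16-5p, at 1812, 1843 and 1667 CPM at 15 Gy 2 weeks, against 2427, 2026 and 484 CPM at 0 Gy 1 week. miR-486-5p took 1.05, 2.03 and 4.07% of the counts of the libraries at 15 Gy 2 weeks, against 0.693, 1.05 and 5.79% at 0 Gy 1 week. The exact permutation p for this share was 0.9 (two-sided), where 3 against 3 libraries cannot go below 0.1. In both groups the shallowest library held the largest share of miR-486-5p. All 5 red cell miRNAs tested were positive, with a median of 0.32 (0.11 without 0 Gy 1 week replicate 3), and none passed the test. The log2 fold change of miR-451-5p was 0.64 (SE 0.84) and that of miR-144-3p 0.32 (SE 0.78).

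Lymphocyte miR-150-5p had 1168, 1287 and 1375 CPM at 15 Gy 2 weeks, against 1385, 1848 and 592 CPM at 0 Gy 1 week. Its log2 fold change was -0.01 (SE 0.47, 95% interval -0.94 to 0.91), or -0.52 (SE 0.42) without 0 Gy 1 week replicate 3. The other lymphocyte miRNAs tested, miR-150-3p and miR-342-3p, had log2 fold changes of 0.27 (SE 0.81) and 0.23 (SE 0.57). The list thus had 2 of 3 positive and a median of 0.23, which was -0.31 without that library. Myeloid miR-223-3p had 125, 108 and 84.8 CPM at 15 Gy 2 weeks, against 76.2, 85.6 and 53.8 CPM at 0 Gy 1 week (log2 fold change 0.48, SE 0.52). Leukocyte miR-142-3p had 37.4, 27.6 and 14.1 CPM at 15 Gy 2 weeks, against 41.4, 42.8 and 0 CPM at 0 Gy 1 week (log2 fold change -0.44, SE 0.56). With miR-142-5p, described below, the leukocyte list had 2 of 3 positive and a median of 0.02, which was -0.17 without that library. The epithelial list had 9 of 14 members positive and a median of 0.15, which was -0.22 without 0 Gy 1 week replicate 3. Ciliated cell miRNAs had 2 of 6 positive and a median of -0.24 (-0.27 without that library). Smooth muscle miRNAs had 3 of 4 positive and a median of 0.18 (-0.18 without it), and the arms of endothelial miR-126a 1 of 2 and 0.06 (-0.44 without it). In these 4 cell type lists, 0 members had an unadjusted p under 0.05. With library totals in place of TMM, the medians of the inflammation, red cell, lymphocyte, epithelial, smooth muscle and endothelial lists lay between -0.32 and -0.0028, so the sign of each depended on the scaling. Of the imprinted Dlk1-Dio3 cluster, 5 of 68 members passed the filter on low counts, so the cluster was barely measured in adult lung at this depth. The study followed miR-142-5p, miR-144-3p, miR-144-5p, miR-19a-3p, miR-150-5p and miR-21-5p by RT-qPCR in blood, some of them picked from blood libraries of the same series and others from earlier reports. It also tested them in lung at 2 weeks and, with data not shown, reported a decrease of miR-150-5p and no change of the others. In the lung libraries these 6 had a median of 0.06, which was -0.12 without 0 Gy 1 week replicate 3, and 0 of them had an unadjusted p under 0.05. For miR-150-5p the log2 fold change was -0.01, or -0.52 without that library, as given above. The RT-qPCR of the study was expressed relative to miR-191-5p, whereas these values were scaled by TMM, so the measures are unlike. miR-191a-5p itself was at 7234, 8152 and 14394 CPM at 15 Gy 2 weeks, against 7467, 7420 and 4302 CPM at 0 Gy 1 week. When scaled to miR-191a-5p, the 6 had a median of -0.22.

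Single markers of the tissue mostly overlapped between the groups. Epithelial miR-200b-3p was at 1332, 880.3 and 598 CPM at 15 Gy 2 weeks, against 1019, 1218 and 161 CPM at 0 Gy 1 week (log2 fold change 0.20, SE 0.64). miR-183-5p, of the sensory and epithelial miR-183 cluster, was at 582, 607 and 655 CPM at 15 Gy 2 weeks, against 446, 455 and 215 CPM at 0 Gy 1 week (log2 fold change 0.69, SE 0.43). Its irradiated libraries all lay above the controls, which was not so for miR-96-5p (log2 fold change 0.37, SE 0.65) of the same cluster. Neuroendocrine miR-375-3p was at 2103, 2247 and 2214 CPM at 15 Gy 2 weeks, against 1837, 2337 and 2689 CPM at 0 Gy 1 week (log2 fold change -0.06, SE 0.50). miR-449c-5p, of multiciliated cells, was at 14.3, 13.8 and 23.6 CPM at 15 Gy 2 weeks, against 9.80, 6.85 and 0 CPM at 0 Gy 1 week (log2 fold change 1.01, SE 0.56), and its relative miR-449a-5p was at 118, 100.3 and 70.7 CPM at 15 Gy 2 weeks, against 97.4, 94.1 and 215 CPM at 0 Gy 1 week (log2 fold change -0.34, SE 0.55). These values differed in sign within 1 family. Endothelial miR-126a-3p was at 7466, 5924 and 4955 CPM at 15 Gy 2 weeks, against 7929.8, 8932 and 3226 CPM at 0 Gy 1 week (log2 fold change -0.13, SE 0.51), with the deep controls above all irradiated libraries. miR-29a-3p, which restrains collagen genes, was at 1098, 1124 and 1196 CPM at 15 Gy 2 weeks, against 1292, 1372 and 376 CPM at 0 Gy 1 week (log2 fold change 0.15, SE 0.49), and hypoxia-induced miR-210-3p at 10.6, 7.52 and 18.8 CPM at 15 Gy 2 weeks, against 12.5, 12.0 and 0 CPM at 0 Gy 1 week (log2 fold change -0.04, SE 0.46).

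**Figure D3:**
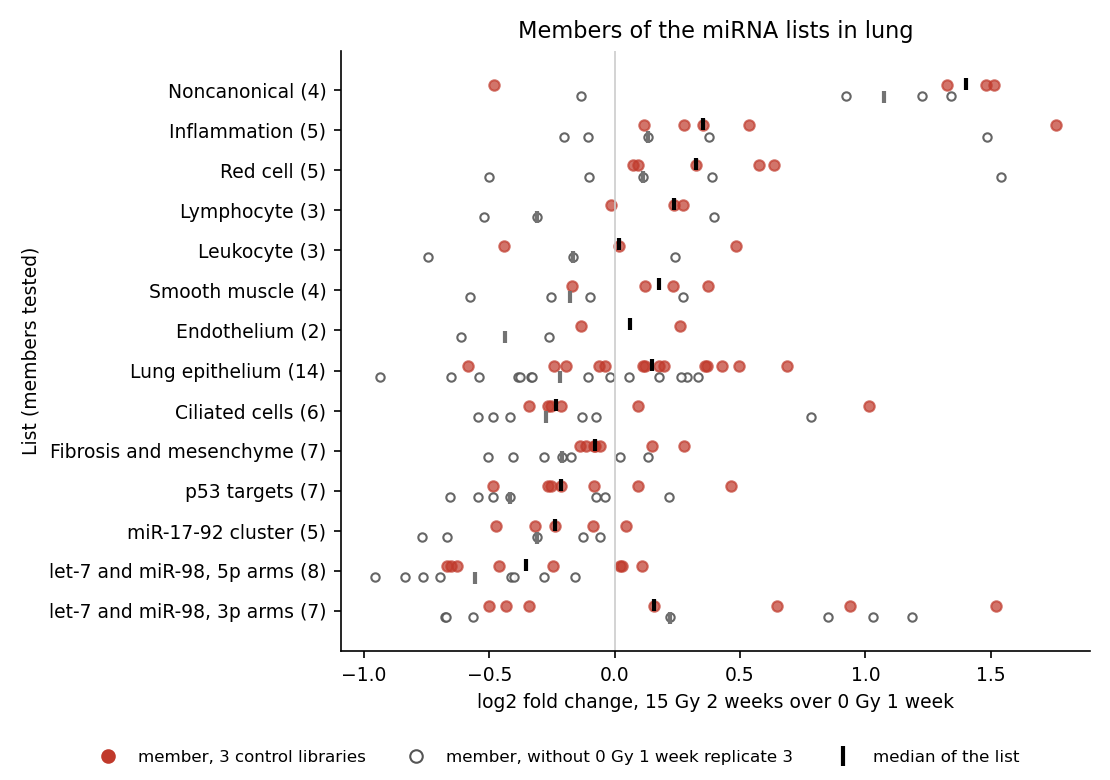
Log2 fold changes of lung at 15 Gy 2 weeks over 0 Gy 1 week for the members of 14 lists, with all 3 control libraries (filled) and without 0 Gy 1 week replicate 3 (open), and the median of each list as a bar. The noncanonical miRNAs have a median of 1.40, and the let-7 and miR-98 5p arms one of -0.35.

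Shares of the whole library by class of row did not separate the groups. Known miRNAs took 41.7 ± 0.66% of the counts at 15 Gy 2 weeks and 47.2 ± 8.08% at 0 Gy 1 week (SD, 3 libraries each), where the controls without replicate 3 averaged 42.5%. The exact two-sided permutation p was 0.2 (0.8 after adjustment over 4 shares). New loci took 50.5 ± 2.58% at 15 Gy 2 weeks and 44.4 ± 10.6% at 0 Gy 1 week, with 32.2% in 0 Gy 1 week replicate 3.

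Base composition moved with the fold change. Over 218 known miRNAs the log2 fold change and the share of G and C in the mature sequence had a Pearson r of 0.37, or 0.43 without 0 Gy 1 week replicate 3, as a description, since the miRNAs share the 6 libraries. The median log2 fold change was -0.06 for 38 miRNAs under 40% G and C, 0.02 for 80 from 40 to 50%, 0.11 for 74 from 50 to 60% and 0.33 for 26 at 60% or more. Of the 10 miRNAs above, 5 were in the last range, and 7 had their highest value in 15 Gy 2 week replicate 3, the shallowest of the irradiated libraries. Within single libraries, set against unirradiated lung, r was -0.02, 0.24 and 0.40 at 15 Gy 2 weeks and -0.21, -0.04 and 0.02 at 0 Gy 1 week. It was 0.45 to 0.56 at 15 Gy 1 week, -0.13, 0.01 and 0.07 at 15 Gy 3 weeks and -0.30, -0.02 and -0.09 at 15 Gy 4 weeks. Unirradiated lung at 0 Gy 4 weeks had -0.52, 0.51 and 0.08, so r varied as widely without irradiation. The reference was the mean of the 0 Gy libraries other than 0 Gy 1 week replicate 3, so those libraries enter their own reference. With an offset for G and C, the log2 fold change was 1.27 for miR-1249, 1.23 for miR-6328 and 0.73 for miR-484, and 7 of the 10 had an unadjusted p under 0.05. With log depth as a covariate 8 of the 10 did.

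**Figure D4:**
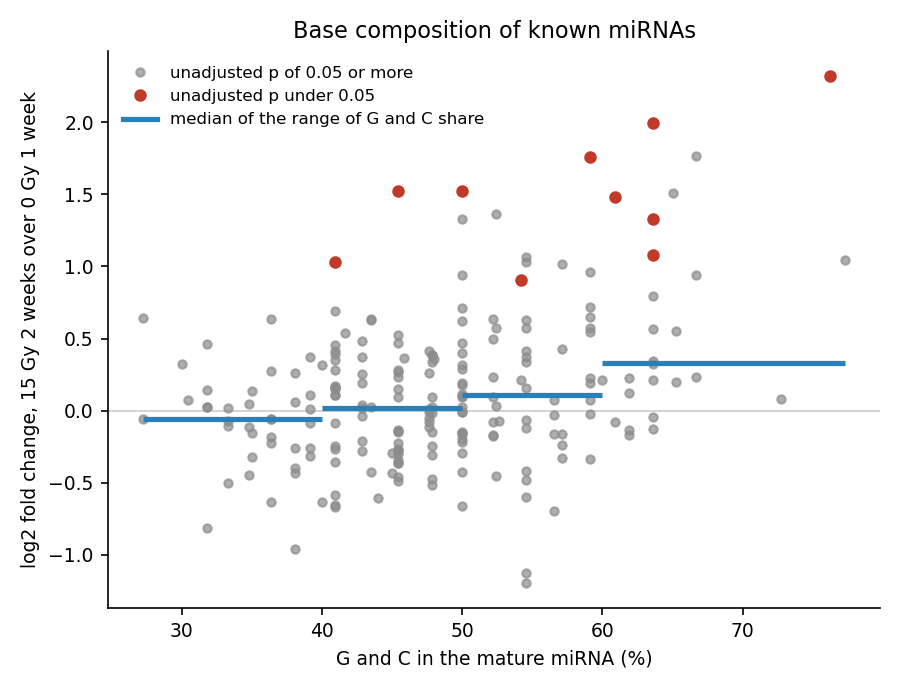
Log2 fold change of lung at 15 Gy 2 weeks over 0 Gy 1 week against the percentage of G and C in the mature sequence for 218 known miRNAs, with the median of each range as a line. The medians run between -0.06 under 40% and 0.33 at 60% or more, and the red points are the 10 miRNAs with an unadjusted p under 0.05.

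Against the neighbouring week of the same dose, 1 row of 499 passed the adjusted threshold (0.2%), and it was a known miRNA, miR-338-3p. At an unadjusted p under 0.05, 13 rows lay higher at 15 Gy 2 weeks (2.61%) and 12 lower (2.4%), of which 8 and 5 were known miRNAs (3.31% and 2.07%). miR-338-3p, which in mouse promotes the maturation of oligodendrocytes, had 21.2, 17.6 and 9.42 CPM (34, 14 and 2 reads) at 15 Gy 2 weeks, against 2.81, 2.45 and 3.12 CPM (4, 1 and 6 reads) at 15 Gy 1 week. Each of the libraries at 2 weeks lay above each at 1 week, on few reads. The log2 fold change was 2.52 (SE 0.45), with an adjusted p of 0.0315 in edgeR. Over 16 other settings it was 2.12 to 2.82, with an adjusted p of 0.00494 to 1 and a call in 5 of them. In unirradiated lung it was at 16.9, 16.3 and 0 CPM at 1 week, so that the values at 15 Gy 2 weeks were near those of the deep controls (log2 fold change 0.11, SE 0.43) and the values at 15 Gy 1 week were below them. At 0 Gy 4 weeks it averaged 9.66 ± 4.35 CPM and at 15 Gy 4 weeks 8.83 ± 0.819 CPM (SD, 3 libraries each).

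miR-3065-5p moved with it, at 19.3, 17.6 and 9.42 CPM at 15 Gy 2 weeks, against 0, 2.45 and 4.17 CPM at 15 Gy 1 week (log2 fold change 2.79, SE 0.71, adjusted p = 0.239). In GRCr8 miR-338-3p lies at chr10:105796345-105796367 on the minus strand, within the span of Aatk, and miR-3065-5p at chr10:105796345-105796364 on the plus strand. The reverse complement of miR-3065-5p lies within miR-338-3p over 20 bases. In the 18 lung libraries their counts differed by at most 6 reads, with totals of 254 and 235. They therefore cannot be told apart and are no separate observations.

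miR-30c-1-3p lay lower, at 2.49, 1.25 and 4.71 CPM at 15 Gy 2 weeks, against 12.7, 12.3 and 10.4 CPM at 15 Gy 1 week (log2 fold change -2.26, SE 0.53, adjusted p = 0.182). The groups were far apart, but the irradiated libraries at 2 weeks held 4, 1 and 1 reads. Against 0 Gy 1 week, with 4.90, 5.99 and 0 CPM, its log2 fold change was -1.13 (SE 0.57). Leukocyte miR-142-5p had 89.1, 85.3 and 137 CPM at 15 Gy 2 weeks, against 16.9, 39.3 and 45.3 CPM at 15 Gy 1 week (log2 fold change 1.61, SE 0.52, adjusted p = 0.544). It averaged 104 ± 28.6 CPM at 15 Gy 2 weeks and 103 ± 12.9 CPM at 0 Gy 1 week (SD, 3 libraries each), a log2 fold change of 0.02 (SE 0.53). miR-142-3p, of the same hairpin, had a log2 fold change of 0.80 (SE 0.55) against 15 Gy 1 week. miR-363-3p had 13.7, 11.3 and 4.71 CPM at 15 Gy 2 weeks, against 2.11, 4.91 and 2.08 CPM at 15 Gy 1 week (log2 fold change 1.99, SE 0.60, adjusted p = 0.418). miR-21-3p was at 1.41, 9.82 and 13.02 CPM at 15 Gy 1 week, below the 16.2, 20.1 and 51.8 CPM of 15 Gy 2 weeks (log2 fold change 1.77, SE 0.71, adjusted p = 0.771). miR-338-3p, miR-3065-5p and miR-363-3p were named after their values were seen.

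**Figure D5:**
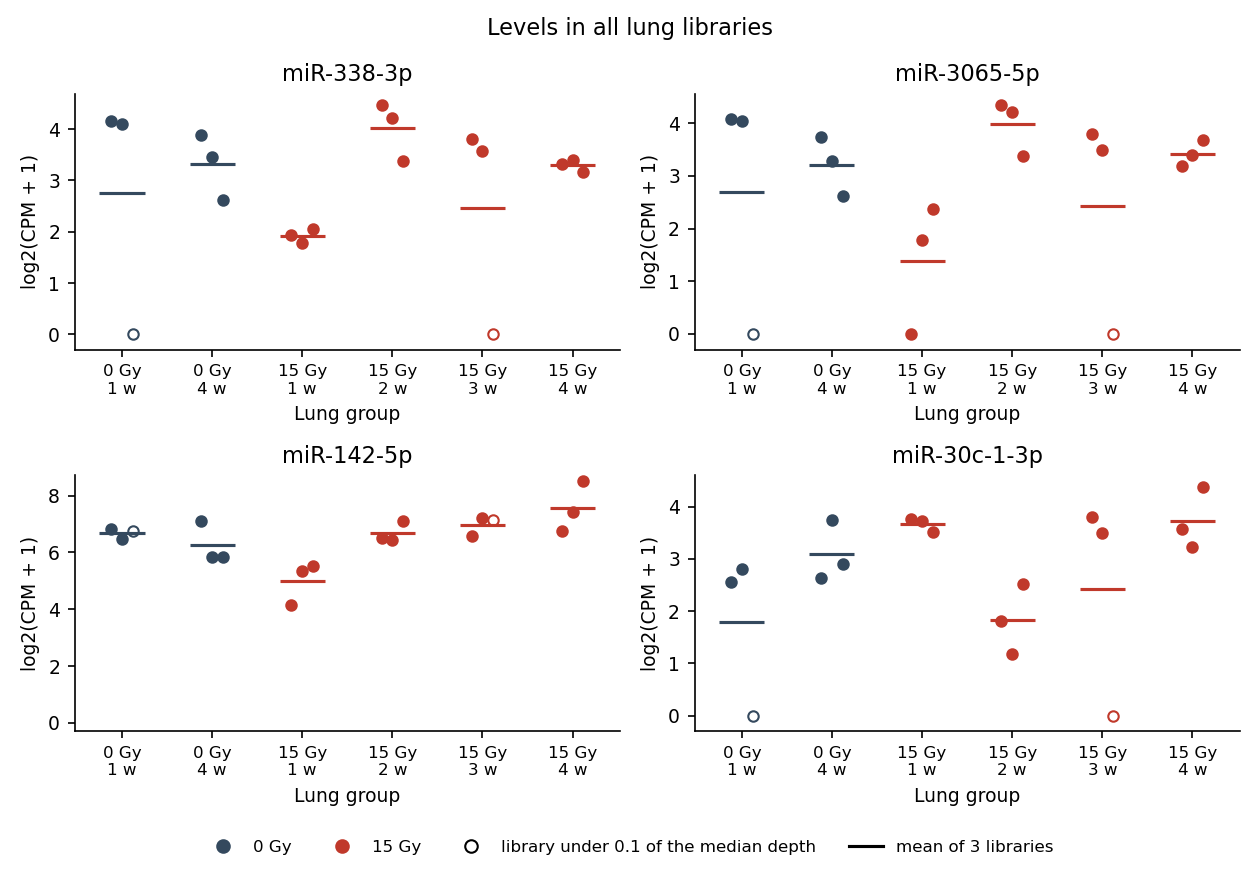
Levels of miR-338-3p, miR-3065-5p, miR-142-5p and miR-30c-1-3p as log2(CPM + 1) in each of the 18 lung libraries, by group, with the mean of 3 libraries as a line and libraries under 0.1 of the median depth as open points. miR-338-3p lies at 2.81, 2.45 and 3.12 CPM at 15 Gy 1 week and at 21.2, 17.6 and 9.42 CPM at 15 Gy 2 weeks.

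None of the 10 miRNAs with an unadjusted p under 0.05 against 0 Gy 1 week passed the adjusted threshold between the weeks. At 15 Gy 1 week miR-1249 had 47.1, 17.2 and 34.9 CPM and miR-423-5p 1119.8, 682 and 789 CPM, and the log2 fold changes of 15 Gy 2 weeks over 15 Gy 1 week were 0.35 (SE 0.56) and -0.56 (SE 0.31). Against 0 Gy 1 week, miR-1249 had a log2 fold change of 1.99 at 2 weeks and 1.65 at 1 week, and miR-423-5p one of 0.91 at 2 weeks and 1.47 at 1 week, and both comparisons share the control libraries. Of the 10, miR-21-3p alone had an unadjusted p under 0.05 between the weeks, and its log2 fold change against 0 Gy 1 week was 1.76 at 2 weeks and -0.01 at 1 week. miR-582-3p, at 10.5, 9.82 and 7.81 CPM at 15 Gy 1 week, lay below its levels at 15 Gy 2 weeks, and miR-532-3p, at 18.98, 19.6 and 19.8 CPM, above them.

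The predicted new loci entered the fit and are summarised only where they passed a threshold. DESeq2, an alternative tool, called 6 of 854 rows with an adjusted p at 15 Gy 2 weeks against 0 Gy 1 week, 3 higher and 3 lower, and 0 known miRNAs. All 6 were rows of predicted loci at 0 reads in each library of 1 group. An example is a row on chromosome 11 with 0 reads in each library of 15 Gy 2 weeks and 1561, 1374 and 0 reads at 0 Gy 1 week. The same coordinates also occur in another row, under another class of prediction, so 0 reads in this row do not show that the locus had none. At an unadjusted p under 0.05, DESeq2 gave 6 rows higher and 5 lower, of which 0 and 1 were known miRNAs. Against 0 Gy 4 weeks in place of 0 Gy 1 week, edgeR called 0 rows, and 12 known miRNAs lay higher (4.96%, against 5.81% of all rows) and 20 lower (8.26%, against 6.21% of all rows) at an unadjusted p under 0.05.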

How the data were processed

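Per the methods of the study, adapters and poor-quality ends were trimmed, reads were aligned to miRBase 19 with Bowtie, and miRanalyzer predicted new loci from the remainder. Versions in the submitters' processing notes are 1.1.1 for Bowtie and 0.2.5 for Trim Galore, and the build is rn4. What the authors deposited are raw read counts for 947 rows, used as they stand. All 18 lung libraries were fitted together in edgeR 4.0.16 (R 4.3.3) after filterByExpr and TMM scaling. The quasi-likelihood F test was used, and p was adjusted by Benjamini-Hochberg over the 499 rows tested. The SE is the log2 fold change over the root of F, and intervals span 1.96 SE on each side. For a few rows of low counts, edgeR raises p to that of a Poisson fit. Levels are CPM after TMM scaling. Each replicate was treated as a pool of different rats, after the methods of the study.

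Alternatives were no filter, a mean above 1000, RLE, totals and miR-191a-5p scaling, DESeq2 1.42.0, only the groups compared, known miRNAs only, other controls, shallow libraries or single replicates left out and a replicate block. A log depth covariate, a G and C offset and DESeq2 without 0 Gy 1 week replicate 3 were chosen after seeing the data. The test was checked on simulated data. Members and lists were chosen with earlier results of these data known. Named known miRNAs were the 12 higher and 6 lower with the smallest p, the 10 most abundant and members of the lists, and homologs or new loci only past an adjusted threshold. The control of 2 weeks follows that of the study in blood. Fold changes and p-values of the study were not used.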

Additional observations from a re-analysis of the deposited data

Results flagged for a closer look

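miR-338-3p was singled out because its effect after 15 Gy differed between the weeks in a test of the difference itself. Its log2 fold change at 2 weeks minus that at 1 week was 2.52 (SE 0.45, adjusted p = 0.0315 with the quasi-likelihood test of edgeR). In CPM all 3 libraries at 15 Gy 2 weeks (34, 14 and 2 reads) lay above those at 15 Gy 1 week (4, 1 and 6 reads). In reads they did not, and the lowest value at 2 weeks, 9.42 CPM, rested on 2 reads. The difference is the comparison of both irradiated groups, and the control libraries drop out of it. Leaving out 15 Gy 2 week replicate 1 gave an adjusted p of 0.236, 15 Gy 2 week replicate 2 gave 0.283, and 15 Gy 1 week replicates 1, 2 and 3 gave 0.287, 0.363 and 0.210. What sets the low counts at 15 Gy 1 week was not tested.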

How the results depend on the processing

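For 15 Gy 2 weeks against 0 Gy 1 week, edgeR called 0 rows in each alternative run, the replicate block included, and 0 with each replicate left out. DESeq2 called 6, or 5 without 0 Gy 1 week replicate 3, and 26 rows had an unadjusted p under 0.05. For 15 Gy 2 weeks against 15 Gy 1 week, the 1 call became 0 with no filter, a mean above 1000, library totals, miR-191a-5p scaling, only both groups, shallow libraries left out or the replicate block. Calls numbered 2 with the G and C offset, 3 with known miRNAs only and 6 with DESeq2. The 6 of DESeq2 were all predicted loci, so DESeq2 did not call miR-338-3p. With replicates left out there were 0 to 1 calls. The difference in the share of known miRNAs was -5.43 percentage points, and -7.80 to -0.768 with replicates left out. The cause of these differences was not tested. Replicate numbers gave no clear pairing. Same-numbered libraries correlated at 0.09, 0.12 and 0.11 with 0 Gy 1 week, where other pairs ran from -0.15 to 0.14. With 15 Gy 1 week they correlated at 0.06, 0.07 and -0.07, where other pairs ran from -0.13 to 0.06. In that order, 2 of 3 and 1 of 3 were closest to their own number. So few libraries, with a shallow control among them, cannot exclude a pairing. Of 2208 further values over 111 miRNA results, 2194 kept their side of the threshold without a reversal, 11 lost a call, 3 gained one and 0 reversed. A reversal was counted only where both values lay more than 1 SE from 0, so smaller changes of sign are among the 2194. Only miR-338-3p between the weeks had a call to lose. Levels rest on 2 deep control libraries for any miRNA under 161 CPM.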
